A study of Mus musculus with 18 samples.

Results

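The genes described here encode the translation initiation factors (eIFs), the elongation factors (eEFs) and the aminoacyl-tRNA synthetases of the mouse. They were taken from the 3 Affymetrix chip types MG_U74Av2, MG_U74Bv2 and MG_U74Cv2 by symbol: every probe set that the platform annotation gives a single gene symbol starting with Eif and a digit of 1 to 6, or with Eef and 1 or 2, or made of an amino acid letter followed by ars, ars1 or ars2. A probe set is the group of short probes with which the array reads 1 transcript. The rule found 176 probe sets of 88 genes, among 36701 probe sets of 15965 named genes on the 3 chip types. Of the 176, 91 lay on MG_U74Av2, 52 on MG_U74Bv2 and 33 on MG_U74Cv2.

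Translation starts when eIF2 brings the initiator tRNA to the small ribosomal subunit, eIF3, eIF1 and eIF1A hold the complex open for scanning, and the eIF4 factors recruit the capped messenger. The eEFs then move the ribosome along the coding sequence, and each synthetase loads a tRNA with its amino acid. The pathway is known to be throttled at a pair of points, by kinases that phosphorylate eIF2 and by 4E-binding proteins that occupy the cap-binding factor eIF4E. In mouse cells, phosphorylation of eIF2 raises translation of the transcription factor ATF4, and several cytosolic synthetase genes are known targets of ATF4.

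The RNAs came from bone marrow stromal cells, the adherent fibroblast-like cells of the marrow. CD34+ clones and CD34- clones were isolated from adult mouse marrow and grown as single-cell colonies in DMEM with fetal bovine serum. There were 3 CD34+ RNAs and 3 CD34- RNAs, each read on 1 array of every chip type, so 18 arrays in all. The labels give a purity of 100% by flow cytometry for CD34 in every sample, name other marrow cells as the possible contaminant, and give neither strain nor sex. Whether the 3 RNAs of 1 group were drawn from different clones or cultures is not stated, and the series' design text counts 2 samples. P-values here thus rest on a spread that could be purely technical, and a difference between single clones cannot be told apart from a difference in CD34 status.

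The deposited intensities of the CD34+ arrays had been scaled to a common level and those of the CD34- arrays had not, so that the CD34- arrays lay 14.1 to 120 times lower as deposited. All signals below are intensities after quantile normalization of the 6 arrays of a chip type, which gives every array the same distribution of values and removes any difference in total message between the groups. A difference is a log2 difference, CD34+ minus CD34-, on the scale log2(signal + offset). The test was limma's moderated test over all probe sets of the chip type bright enough to be tested, with Benjamini-Hochberg adjustment, and probe sets with an adjusted p below 0.05 are named as called. On MG_U74Av2, arrays of the same group correlated at 0.970 to 0.979, and arrays of different groups at 0.962 to 0.967. Both groups were spread over fluidics stations 1 and 2 on MG_U74Av2. On MG_U74Bv2 and MG_U74Cv2, all CD34+ arrays and that of CD34- RNA 1 ran on station 1, and those of CD34- RNAs 2 and 3 on station 2. Every difference on those chip types can thus barely be told apart from a difference between stations.

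The defining markers bore out the CD34 label and left gaps in the stromal one. Both probe sets of Cd34 were called higher, with 787 to 938 in CD34+ RNAs against 59.9 to 202 in CD34- RNAs. The groups were defined by CD34, so this is a check of the labels and not a result. Of 27 tested probe sets for stromal markers, 14 were called lower and 1, for Cd44, higher. All of these calls were among the 22 tested on MG_U74Av2, where 6.69% of all tested probe sets were called lower and 8.21% higher. The summed signal of the list was 115100 to 122200 in CD34+ RNAs against 190800 to 212400 in CD34- RNAs. Probe sets of Thy1, a defining stromal marker, were too dim to be tested. Haematopoietic markers summed to 3298 to 4234 in CD34+ RNAs and 2798 to 4447 in CD34- RNAs. Ptprc was among those too dim to test, but 4 probe sets of Cd14, Csf1r and Hba-a1 were tested. Of these, 0 were called, where 14.9% of all tested probe sets on MG_U74Av2 were. Cd14 read 1731 to 1981 in CD34+ RNAs against 1509 to 2492 in CD34- RNAs. The brighter Csf1r probe set read 612 to 786 against 627 to 759, and Hba-a1 328 to 614 against 78.5 to 420. Endothelial markers summed to 595 to 680 in CD34+ RNAs and 607 to 834 in CD34- RNAs, and 0 of 1 tested probe set was called. In such bulk RNA, fewer cells of a type and less RNA per cell cannot be told apart. Signs of RNA handling also moved with the groups on MG_U74Av2: the 3' to 5' signal ratio of Gapdh was 0.700 to 0.771 in CD34+ RNAs against 0.802 to 0.832 in CD34- RNAs, and the RNA concentration in the labels was 0.421 to 0.721 µg/µl against 0.989 to 1.38 µg/µl. The Gapdh ratio overlapped between the groups on the other chip types. It was 0.775 to 0.825 in CD34+ RNAs against 0.750 to 0.819 in CD34- RNAs on MG_U74Bv2, and 0.764 to 0.787 against 0.730 to 0.811 on MG_U74Cv2. The part of the ratio and of the concentration in the differences below was not tested.

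Few members differed between the clones. Of 74 tested members on MG_U74Av2, 3 were called higher in CD34+ RNAs and 2 lower, which is 6.76% of the members against 14.9% of all 7634 tested probe sets (8.21% higher and 6.69% lower). On MG_U74Bv2, 1 of 33 was called, and higher, where 1.09% of all tested probe sets were called (0.685% higher). On MG_U74Cv2, 0 of 21 were called by limma, against 0.0936% of all, and 2 of the 21 had an unadjusted p under 0.05, where 8.84% of all did. The 6 called probe sets belong to 4 genes: Eif1ax, Eif2s3x, Eif3b and Nars. Few probe sets of any kind were called on MG_U74Bv2 and MG_U74Cv2, so a count of 0 calls there says little about the members.

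The differences were small in size on MG_U74Av2, and less narrowly bounded on the other chip types. On MG_U74Av2 they ran between -0.43 and 0.72, 0 of 74 members reached a 2-fold difference and 1 reached 1.5-fold, where 2.96% and 12.5% of all tested probe sets did. The 95% interval of the difference lay wholly within 2-fold in either direction for 70 of the 74 members (94.6%, against 83.7% of all) and within 1.5-fold for 39 of them (52.7%, against 42.5%). On MG_U74Bv2 the interval lay within 2-fold for 30 of 33 members (90.9%, against 69.8% of all), and on MG_U74Cv2 for 12 of 21 (57.1%, against 42.3%). It lay within 1.5-fold for 8 of the 33 (24.2%, against 23.4% of all) and for 0 of the 21 (against 8.35%). The median standard error of the members on MG_U74Av2 was 0.13, against 0.16 over all tested probe sets, and their median absolute difference was 0.23 in both sets. The median absolute difference of the members was 0.25 on MG_U74Bv2, against 0.24 of all, and 0.28 on MG_U74Cv2, against 0.27.

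**Figure D1:**
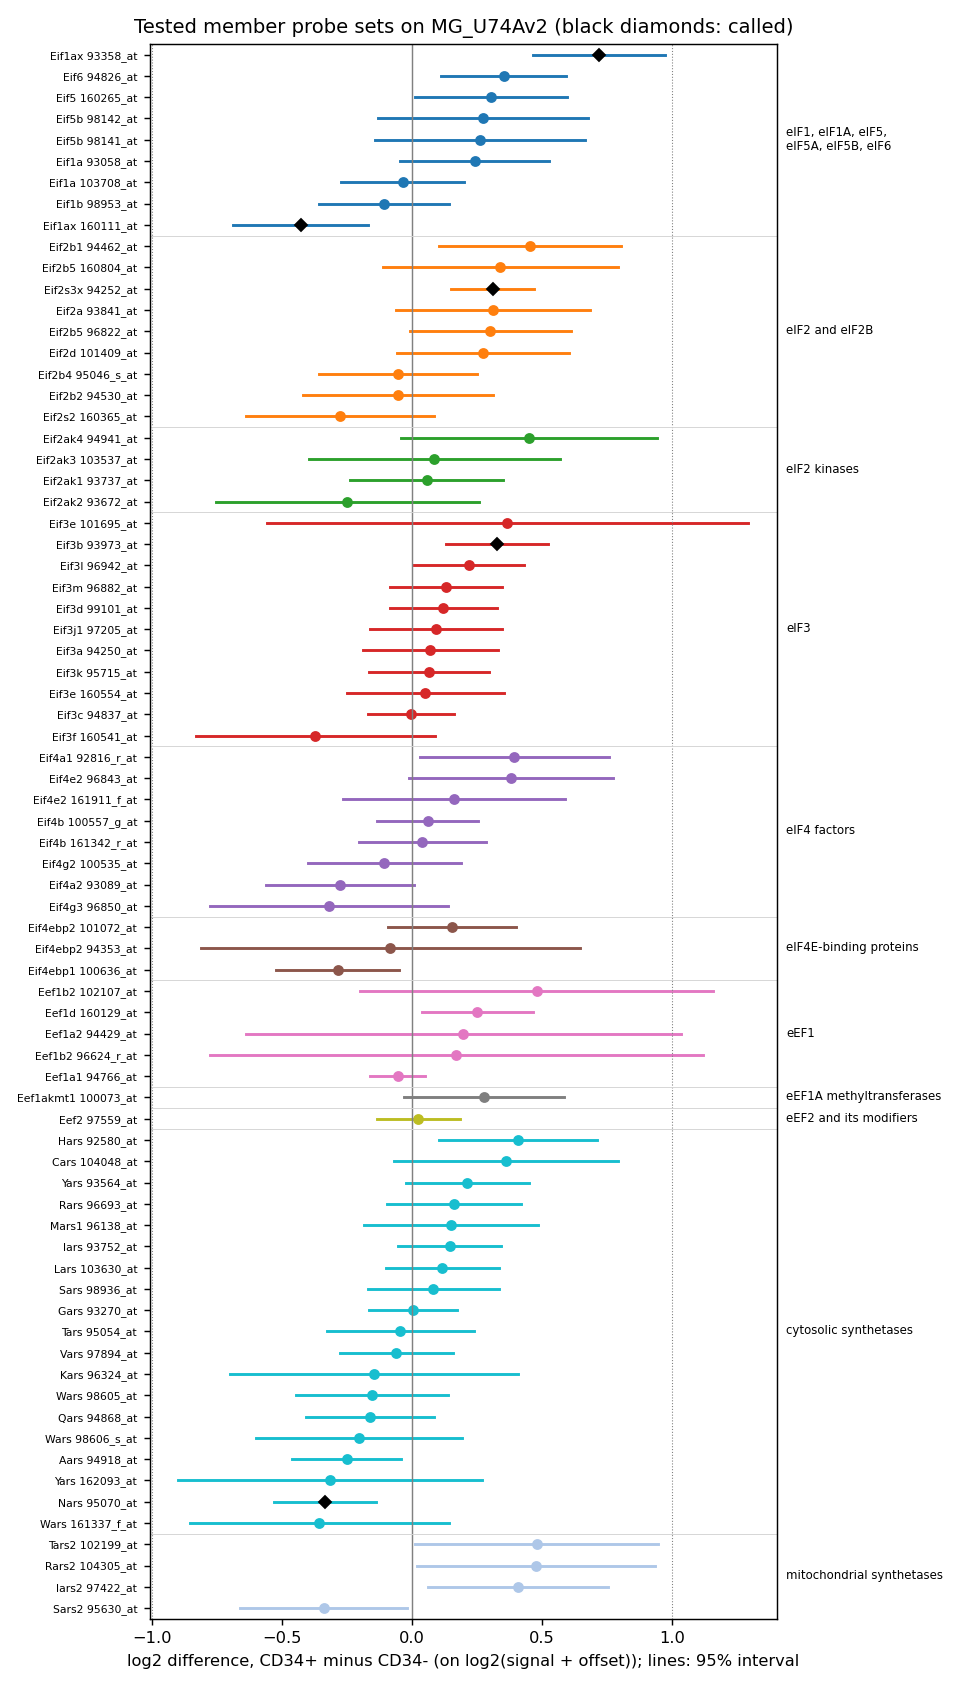
Log2 difference (x axis, CD34+ minus CD34-, log2 scale) of the 74 tested member probe sets on MG_U74Av2, grouped down the page by role, with the 95% interval of each as a line. Black diamonds are the 5 called probe sets, coloured circles the other members, and dotted lines mark a 2-fold difference, which none of the point values reaches.

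The bulk of the members sat slightly above 0. On MG_U74Av2, 48 of 74 differences were positive (64.9%, against 51.3% of all tested probe sets), with a median of 0.11 against 0.01. The members' median lay 0.05 to 0.13 above that of all tested probe sets under every alternative run on this chip type, with the 0.05 reached without CD34- RNA 2. The medians were 0.12 against 0.00 on MG_U74Bv2 and 0.23 against 0.00 on MG_U74Cv2. On MG_U74Bv2 the gap of 0.12 was less steady: it was 0.02 without the filter and 0.02 under the stricter filter, 0.07 without CD34+ RNA 1 and 0.08 without CD34- RNA 3. On MG_U74Cv2 it ran between 0.12, without the filter, and 0.34. Taken per RNA, the median deviation of the members from their own mean on MG_U74Av2 was 0.05, 0.06 and 0.02 in the CD34+ RNAs, against -0.05, -0.08 and -0.01 in the CD34- RNAs. All 3 CD34+ RNAs thus lay above all 3 CD34- RNAs on this chip type. On MG_U74Bv2 the medians overlapped, with 0.05, 0.08 and 0.08 in the CD34+ RNAs against -0.05, 0.07 and -0.05 in the CD34- RNAs. The groups of single members did not overlap for 23 of 74 (18 higher, 5 lower), or 31.1%, where 34.5% of all tested probe sets had no overlap (18.8% higher, 15.7% lower). The same share was 18.2% on MG_U74Bv2, against 23% of all, and 14.3% on MG_U74Cv2, against 14.1% of all.

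**Figure D2:**
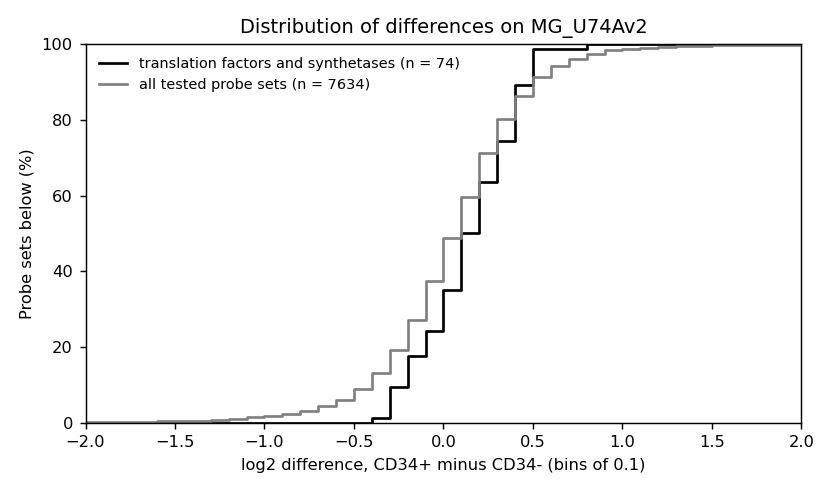
Cumulative share (y axis, percent) of the 74 tested members (black) and of all 7634 tested probe sets (grey) below a given log2 difference (x axis, CD34+ minus CD34-, bins of 0.1) on MG_U74Av2. The members' line lies to the right of that of all probe sets in the lower part and ends sooner, with no member beyond 0.72.

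Among the factors that set up start codon selection, Eif1ax gave the largest called difference. It is an X-linked gene for eIF1A, which binds the decoding site of the small subunit during scanning. Its probe set 93358_at on MG_U74Av2 read 7623, 8354 and 6823 in the CD34+ RNAs, against 4651, 4036 and 5112 in the CD34- RNAs. Every CD34+ RNA was higher than every CD34- RNA. The log2 difference was 0.72 ± 0.11 (SE, n = 3 each; limma adjusted p = 0.0033), or 1.65-fold. It was 0.57 within fluidics station 1 (1 array of each group on this washing and staining unit) and 0.79 within station 2 (2 arrays of each group), and its adjusted p ranged between 0.00225 and 0.02 over the 16 alternatives that bring the arrays to one level.

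Other probe sets of Eif1ax did not follow this one. Of 6 that were tested, 3 differences were positive and 3 negative. Probe set 160111_at, also on MG_U74Av2, was called lower: it read 702, 707 and 726 in the CD34+ RNAs, against 1024, 966 and 935 in the CD34- RNAs. There too the groups did not overlap, in the opposite direction, and the log2 difference was -0.43 ± 0.12 (SE, n = 3 each; limma adjusted p = 0.0372). That call held in 5 of the 16 alternatives (limma adjusted p 0.0265 to 0.121), among the leave-outs only without CD34- RNA 3 (0.0426), and the difference was -0.39 in station 1 and -0.45 in station 2.

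On MG_U74Bv2 the probe set 165199_f_at of Eif1ax was called higher, with 28110, 29960 and 32160 in the CD34+ RNAs against 19150, 16340 and 20330 in the CD34- RNAs. No CD34- RNA reached a CD34+ RNA. The log2 difference was 0.69 ± 0.13 (SE, n = 3 each; limma adjusted p = 0.0467). The call held in 4 of 16 alternatives (limma adjusted p 0.0333 to 0.433), and among the leave-outs only without CD34- RNA 2 (0.0471) or CD34- RNA 3 (0.0365). With the station as a block the difference was 0.65 (limma adjusted p = 0.433), and within station 1 it was also 0.65, there from all 3 CD34+ arrays but a single CD34- array. The suffix f marks a probe set that can read several similar sequences, and Eif1ax has a close relative, Eif1a, among the members.

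The remaining Eif1ax probe sets were not called. On MG_U74Bv2, 109662_at read 492, 886 and 774 in the CD34+ RNAs against 671, 407 and 719 in the CD34- RNAs, and 112968_at read 486, 519 and 545 against 799, 565 and 662. The first overlapped between groups, with a difference of 0.22, and the second did not, with a difference of -0.32 (limma adjusted p = 0.488). On MG_U74Cv2, 168528_f_at read 2885, 3450 and 3111 in the CD34+ RNAs and 3626, 2969 and 4430 in the CD34- RNAs, with overlap and a difference of -0.20. Probe sets 163794_r_at and 164324_f_at were too dim to be tested. The 2 probe sets of Eif1a differed by -0.04 and 0.24 and were not called.

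**Figure D3:**
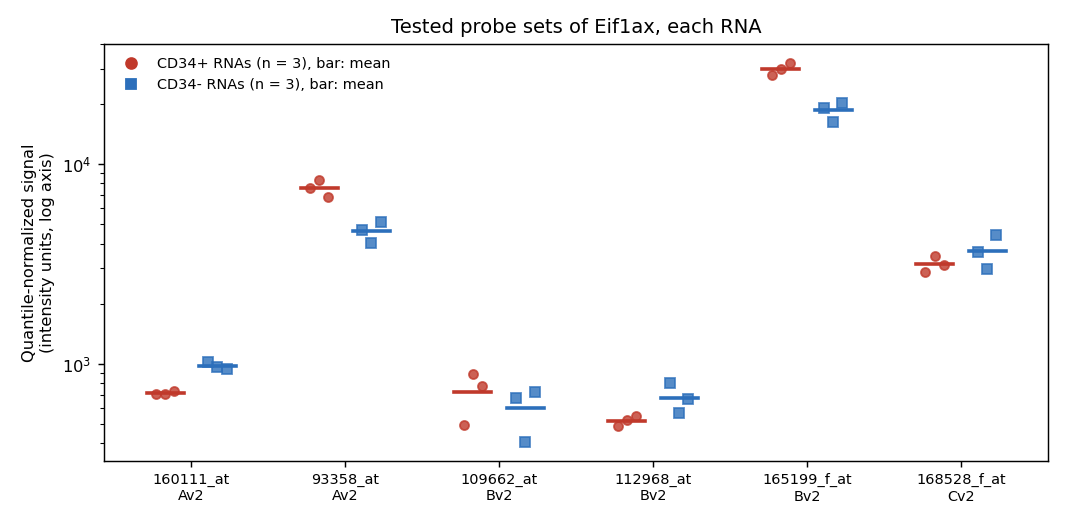
Quantile-normalized signal (y axis, log scale) of the 6 tested Eif1ax probe sets in each RNA, CD34+ (red circles) left of CD34- (blue squares), with bars at the group means; levels of different probe sets are not comparable. Probe sets 93358_at and 165199_f_at lie higher in CD34+ RNAs, 160111_at and 112968_at lower, and 109662_at and 168528_f_at overlap.

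The other factors around the start codon and subunit joining were not called. Eif6, which keeps the large subunit from joining too early, read 3012, 3060 and 3238 in the CD34+ RNAs on MG_U74Av2 against 2638, 2135 and 2503 in the CD34- RNAs, without overlap. Its difference of 0.35 lay just outside the threshold (limma adjusted p = 0.0555), and its 3 tested probe sets were all positive, with values of 0.12 to 0.35. Eif5, the GTPase activator of eIF2, differed by 0.31 (limma adjusted p = 0.154) and was called without CD34- RNA 2. Eif5b, the GTPase that joins the subunits, gave 0.26 and 0.27 on MG_U74Av2 and -0.42 on MG_U74Bv2, where it read 993, 1143 and 1160 in the CD34+ RNAs against 1402, 1782 and 1359 in the CD34- RNAs. Its probe sets thus disagreed in sign, and the last one did not overlap between groups (limma adjusted p = 0.243). Eif5a, the hypusine-carrying factor, has 1 probe set, which was too dim to be tested.

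The class of eIF2 and its exchange factor eIF2B had 9 tested probe sets on MG_U74Av2, among them Eif2a and Eif2d, which are separate initiation factors and not eIF2 subunits. The median difference was 0.30, 6 of 9 were positive and 1 was called, where 51.3% of all tested probe sets were positive and 14.9% called. Without CD34- RNA 2 the median was 0.18, and the per-RNA medians of the class overlapped, with CD34+ RNA 1 at -0.02 and CD34- RNA 1 at 0.02. The called one was 94252_at of Eif2s3x, the X-linked gene for the eIF2 subunit that binds GTP and the initiator tRNA. It read 8727, 8550 and 8652 in the CD34+ RNAs, against 7090, 7090 and 6685 in the CD34- RNAs. The groups did not overlap, and the log2 difference was 0.31 ± 0.07 (SE, n = 3 each; limma adjusted p = 0.0183), or 1.24-fold.

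That call held in 9 of 16 alternatives (limma adjusted p 0.0143 to 0.0964). It was lost without CD34+ RNA 1 (0.0679) and without CD34+ RNA 2 (0.0708), and the difference was 0.38 in station 1 and 0.28 in station 2. A second Eif2s3x probe set, 137240_r_at on MG_U74Cv2, read 1273, 1528 and 949 in the CD34+ RNAs against 1513, 1065 and 1509 in the CD34- RNAs, overlapped and differed by -0.12. Another, 171053_at, was too dim to be tested, as was the probe set of the Y-linked copy Eif2s3y, with 10.4, 72.1 and 24.4 in the CD34+ RNAs against 20, 38.4 and 19.8 in the CD34- RNAs.

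Of the eIF2B subunits, Eif2b1 had the largest uncalled difference. It read 1518, 1566 and 1535 in the CD34+ RNAs against 1179, 867 and 1332 in the CD34- RNAs on MG_U74Av2. The groups did not overlap, with a difference of 0.46 ± 0.15 (SE, n = 3 each; limma adjusted p = 0.0821). Eif2b5, the catalytic subunit, differed by 0.34 and 0.30 with its 2 probe sets, Eif2b3 by 0.30 on MG_U74Bv2, Eif2b4 by -0.05 and 0.28, and Eif2b2 by -0.05 and -0.10. Without CD34- RNA 3, Eif2b1 and Eif2b5 were called higher. Eif2s2, the subunit next to Eif2s3x in the complex, differed by -0.28 (limma adjusted p = 0.295). Eif2s1, the subunit that the kinases phosphorylate, had no probe set with this single symbol.

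The 4 eIF2 kinases gave 0 calls from 6 tested probe sets, 4 on MG_U74Av2 and 2 on MG_U74Bv2, where 14.9% and 1.09% of all were called. Eif2ak4 (GCN2), which senses uncharged tRNA, read 231, 224 and 201 in the CD34+ RNAs against 125, 147 and 170 in the CD34- RNAs. The signals were dim, with the 3 CD34+ arrays above the filter and the 3 CD34- arrays below it, so that the probe set was tested only through the group where it is higher. Its difference of 0.45 ± 0.22 (SE, n = 3 each) is thus given as a description. Eif2ak3 (PERK), the kinase of the endoplasmic reticulum, differed by 0.09 and Eif2ak1, known from its role in red cells as the haem-regulated kinase, by 0.06 and -0.09. Eif2ak2 (PKR), which binds double-stranded RNA, read 1345, 1191 and 1505 in the CD34+ RNAs against 1884, 1786 and 2076 in the CD34- RNAs on MG_U74Bv2. All 3 CD34+ RNAs lay below all 3 CD34- RNAs there, with a difference of -0.48 ± 0.15 (SE, n = 3 each; limma adjusted p = 0.156), and its second probe set differed by -0.25 with overlap.

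Subunits of eIF3, the scaffold of the initiation complex, had 11 tested probe sets on MG_U74Av2, of which 9 were positive and 1 was called. Of all tested probe sets there, 51.3% were positive and 14.9% were called. Eif3b, part of the core, read 5502, 5336 and 5016 in the CD34+ RNAs, against 4235, 4441 and 3935 in the CD34- RNAs. The groups did not overlap, and the difference was 0.33 ± 0.09 (SE, n = 3 each; limma adjusted p = 0.0352), or 1.25-fold.

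The Eif3b call held in 7 of 16 alternatives (limma adjusted p 0.0264 to 0.166) and in 1 of the 6 that leave out an RNA, CD34- RNA 2 (0.0423), with differences of 0.48 in station 1 and 0.25 in station 2. Its other probe set was too dim to be tested. The other core subunits, Eif3a and Eif3c, differed by 0.07 and -0.00 on MG_U74Av2. Eif3c read 9583, 8900 and 9294 in the CD34+ RNAs against 9662, 9349 and 8820 in the CD34- RNAs there. A second Eif3c probe set, on MG_U74Cv2, differed by 0.31 with overlap and was not called. Eif3l read 8416, 9130 and 10510 in the CD34+ RNAs against 7954, 7683 and 8338 in the CD34- RNAs, without overlap, and was not called (0.22; limma adjusted p = 0.153). Eif3f was the lowest of the class at -0.37 (limma adjusted p = 0.267). The class median was 0.09, and single RNAs moved it: leaving out CD34+ RNA 1 gave 0.17, leaving out CD34+ RNA 3 gave 0.06 and leaving out CD34- RNA 3 gave 0.15.

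**Figure D4:**
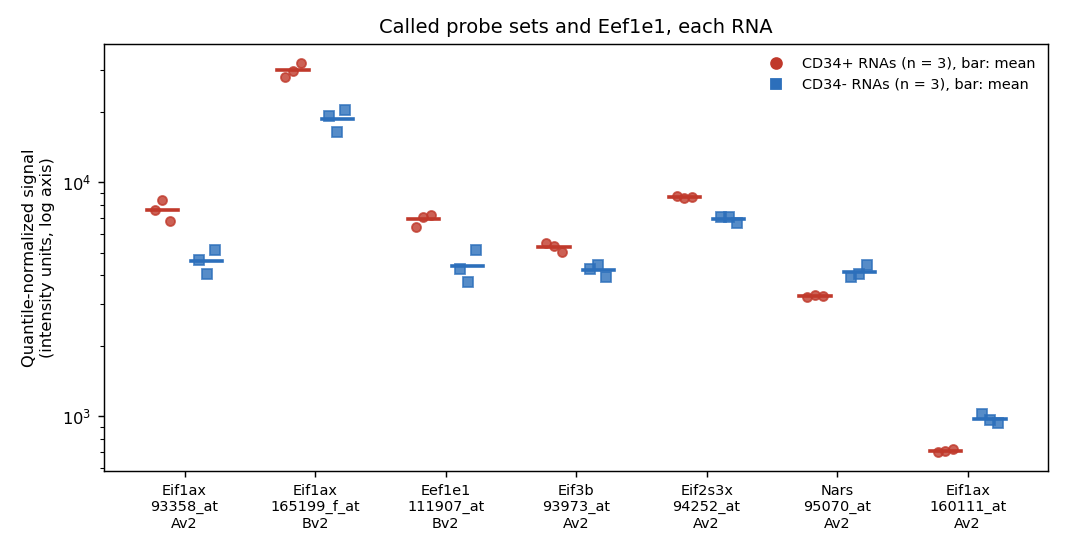
Quantile-normalized signal (y axis, log scale) in each RNA for the 6 called probe sets and for Eef1e1, CD34+ (red circles) left of CD34- (blue squares), with bars at the group means. In each of the 7 the groups do not overlap, with CD34+ above in the first 5 and below in 160111_at of Eif1ax and in Nars.

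The eIF4 factors, which bind the cap, unwind the leader and bridge to the ribosome, had 0 calls from 15 tested probe sets on the 3 chip types. These were 8 on MG_U74Av2, 4 on MG_U74Bv2 and 3 on MG_U74Cv2, where 14.9%, 1.09% and 0.0936% of all tested probe sets were called. The helicase gene Eif4a1 differed by 0.40 (limma adjusted p = 0.14; called without CD34- RNA 3), and Eif4a2, its close relative, by -0.28 (limma adjusted p = 0.182). Eif4b, the helicase cofactor, read 5072, 5532 and 5271 in the CD34+ RNAs against 4891, 4869 and 5456 in the CD34- RNAs, with a difference of 0.06. Eif4e, the cap-binding protein itself, was measurable only with 137241_f_at on MG_U74Cv2, which read 2026, 2199 and 2135 in the CD34+ RNAs against 1882, 1447 and 1750 in the CD34- RNAs. Those groups did not overlap, but the difference of 0.32 was not called (limma adjusted p = 0.714). Eif4g1, the main scaffold, had no probe set with this single symbol.

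Eif4e2, a cap-binding relative of eIF4E known for repressing messengers, was positive in all 5 of its tested probe sets, with differences of 0.16 to 1.18 and 0 calls. The largest, 166644_at on MG_U74Cv2, read 2714, 1640 and 623 in the CD34+ RNAs against 592, 520 and 612 in the CD34- RNAs. It is the only tested member past 2-fold. The 3 CD34+ RNAs spread far more widely than the CD34- RNAs, and CD34+ RNA 3 lay just above the highest of those. The difference of 1.18 ± 0.45 was not called (SE, n = 3 each; limma adjusted p = 0.48).

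The 4E-binding proteins gave 0 calls from 4 tested probe sets, Eif4enif1, the transporter of eIF4E, included. Of the 4, 3 were on MG_U74Av2, where 14.9% of all tested probe sets were called, and 1 on MG_U74Bv2, where 1.09% were. Eif4ebp1, a target of the growth-sensing kinase mTOR, read 2463, 2933 and 2944 in the CD34+ RNAs against 3282, 3294 and 3594 in the CD34- RNAs. All CD34+ RNAs lay below all CD34- RNAs, with a difference of -0.28 ± 0.10 (SE, n = 3 each; limma adjusted p = 0.104). Eif4ebp2 differed by 0.15 and -0.08.

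Elongation factors gave 0 calls from 20 tested probe sets of all Eef genes. These were 7 on MG_U74Av2, 6 on MG_U74Bv2 and 7 on MG_U74Cv2, where 14.9%, 1.09% and 0.0936% of all tested probe sets were called. Eef1e1, which sits in the multi-synthetase complex and is also called AIMP3, came nearest: on MG_U74Bv2 it read 6416, 7107 and 7266 in the CD34+ RNAs against 4238, 3730 and 5113 in the CD34- RNAs. The groups were well apart, with a difference of 0.67 ± 0.14 (SE, n = 3 each; limma adjusted p = 0.0602). It was called in 2 of 16 alternatives, under the stricter filter (0.0443) and without CD34- RNA 3 (0.0365), and with the station as a block its difference of 0.69 had a limma adjusted p of 0.428. Within station 1 it was also 0.69, from all 3 CD34+ arrays but a single CD34- array. The adjusted p of 0.0602 is just outside the threshold, as that of 165199_f_at of Eif1ax is just inside it on the same chip type.

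Eef1a1, which delivers aminoacyl-tRNA to the ribosome, was among the 3 brightest probe sets on every MG_U74Av2 array. Quantile normalization gives the brightest probe set of each array the same value, so that its 4 equal signals of 58470 carry no difference. As deposited, it lay 199, 205 and 154 times above the array median in the CD34+ RNAs, against 213, 194 and 273 times in the CD34- RNAs. These ranges overlap. Eef1d, part of the exchange factor of eEF1A, read 6154, 6922 and 6048 in the CD34+ RNAs against 5214, 4977 and 5840 in the CD34- RNAs, without overlap, and was not called (0.25; limma adjusted p = 0.11). Eef1a2, the copy known from muscle and neurons, differed by 0.20, with overlap.

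Eef2, the translocase, read 22090, 19440 and 21310 in the CD34+ RNAs on MG_U74Av2 against 19690, 20210 and 21800 in the CD34- RNAs. The groups overlapped, and the 95% interval of the difference of 0.03 ran between -0.14 and 0.19. A second Eef2 probe set, 134806_at on MG_U74Cv2, differed by 0.42 with overlap and was not called. Its kinase Eef2k, which blocks Eef2 by phosphorylation, had 4 tested probe sets, 3 of them negative. The lowest, 163206_at on MG_U74Bv2, read 898, 749 and 760 in the CD34+ RNAs against 897, 1303 and 1207 in the CD34- RNAs, with overlap at a single pair of RNAs and a difference of -0.44 (limma adjusted p = 0.297). Of 5 tested probe sets for methyltransferases of eEF1A, 4 were positive and 0 were called. These were 1 on MG_U74Av2, 3 on MG_U74Bv2 and 1 on MG_U74Cv2, where 14.9%, 1.09% and 0.0936% of all tested probe sets were called.

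The symbol rule leaves out Eprs, Farsa and Farsb. The cytosolic synthetases that it took were all measured on MG_U74Av2, with 19 tested probe sets of 16 genes. Their differences fell on both sides of 0, 9 positive and 10 negative, with a median of -0.04, and the 95% interval of all 19 lay within 2-fold. The sign of that median is not fixed: it was 0.04 under the stricter filter, 0.00 without CD34+ RNA 2 and 0.02 without CD34- RNA 3. Of the 19, 1 was called, where 14.9% of all tested probe sets on MG_U74Av2 were (6.69% lower). This was Nars, which loads asparagine. It read 3235, 3290 and 3267 in the CD34+ RNAs, against 3940, 4029 and 4428 in the CD34- RNAs, without overlap. The difference was -0.33 ± 0.09 (SE, n = 3 each; limma adjusted p = 0.0336), or 1.26-fold lower. The call held in 3 of 16 alternatives and in 0 of the 6 that leave out an RNA (limma adjusted p 0.059 to 0.1), and was lost when arrays were scaled to a common median (-0.29; limma adjusted p = 0.139). The difference was -0.45 in station 1 and -0.28 in station 2.

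Among the uncalled cytosolic synthetase probe sets on MG_U74Av2, that of Hars, for histidine, had the largest difference. It read 1516, 1392 and 1157 in the CD34+ RNAs against 973, 937 and 1103 in the CD34- RNAs, a difference of 0.41 ± 0.14 without overlap (SE, n = 3 each; limma adjusted p = 0.0754). Aars, for alanine, read 3043, 3203 and 2788 in the CD34+ RNAs against 3605, 3455 and 3706 in the CD34- RNAs, a difference of -0.25 without overlap (limma adjusted p = 0.108). Gars, for glycine, read 6167, 6291 and 6363 in the CD34+ RNAs against 6003, 6396 and 6359 in the CD34- RNAs, with the groups interleaved and a difference of 0.01. Wars, for tryptophan, was negative in all 4 of its tested probe sets, with differences of -0.36 to -0.15 and 0 calls. A second Gars probe set, on MG_U74Cv2, differed by 0.70 with overlap (limma adjusted p = 0.54).

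Several of these synthetase genes carry the element bound by ATF4 with C/EBP proteins, searched here as TGATGNAA on both strands of the RefSeq promoters (GRCm38.p6, 250 bases before the transcript start and 50 after). A promoter was at hand for 68 of the 88 genes. The motif was found in 7 of these 68 genes, in 8.33% of their promoters against 3.97% of all 32851 promoters. It was found in 5 of the 9 cytosolic synthetases with a promoter (55.6%), in 0 of 12 mitochondrial synthetases, in Eif2s3x, the only called gene with a match, and in Eef2k. Windows of 30 bases are shown for the 5 synthetase genes and Eif2s3x, 5' to 3' on the strand of the gene and with the motif in capitals. TTGCATCA and TTTCATCA are the motif on the opposite strand.
Yars, chr4:129189895-129189924, plus strand: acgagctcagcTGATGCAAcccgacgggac
Gars, chr6:55037960-55037989, plus strand: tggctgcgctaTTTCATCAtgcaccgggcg
Aars, chr8:111033840-111033869, plus strand: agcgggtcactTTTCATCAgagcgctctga
Iars, chr13:49682126-49682155, plus strand: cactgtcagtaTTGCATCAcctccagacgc
Tars, chr15:11399655-11399684, minus strand: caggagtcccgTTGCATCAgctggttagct
Eif2s3x, chrX:94212729-94212758, minus strand: ttcgccatcatTTTCATCAggtctatgccg

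Counted with the first transcribed base as 1, the motif starts at 4 in Yars, at -30 in Gars, at 10 in Aars, at 8 in Iars, at -15 in Tars and at -96 in Eif2s3x. The differences of the same genes on MG_U74Av2 were 0.21 and -0.31 for the 2 Yars probe sets, 0.01 for Gars, -0.25 for Aars, 0.15 for Iars and -0.04 for Tars, none of them called, and 0.31 for Eif2s3x. They lay on both sides of 0, and those of Gars and Tars were smaller than their SEs of 0.07 and 0.13. A link between the element and these differences was not tested. The E-box CACGTG, bound by Myc and related factors, was found in 16 of the 68 member genes, in 21.4% of their promoters against 7.15% of all, and no match overlapped one of TGATGNAA. A match of letters is not a binding site.

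Mitochondrial synthetases had 13 tested probe sets on the 3 chip types, 9 of them positive, with a median of 0.30 and 0 calls. Of the 13, 4 were on MG_U74Av2, where 14.9% of all tested probe sets were called, and 8 on MG_U74Bv2, where 1.09% were. On MG_U74Av2 all 4 tested genes had groups that did not overlap, as had 34.5% of all tested probe sets there. Iars2 read 1033, 831 and 1173 in the CD34+ RNAs against 821, 665 and 748 in the CD34- RNAs, a difference of 0.41 (limma adjusted p = 0.112). Tars2 and Rars2 differed by 0.48 each (limma adjusted p = 0.16 and 0.154). Sars2 went the opposite way, with 712, 708 and 742 in the CD34+ RNAs against 1040, 993 and 765 in the CD34- RNAs, a difference of -0.34 (limma adjusted p = 0.15) that was called without CD34- RNA 3. Mars2 on MG_U74Cv2 had the largest difference of the class, 0.65, with signals of 743, 258 and 502 in the CD34+ RNAs and 101.4, 264 and 546 in the CD34- RNAs, which overlapped. Aars2 and Ears2 were too dim to be tested.

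Where a gene had several tested probe sets, they did not always give 1 answer. Of 32 such genes, 17 had differences of a single sign, 12 positive and 5 negative. Of all 176 members, 43 have a suffix that marks probes shared with similar sequences or picked under relaxed rules. Of the 176, 48 were removed as too dim, which left 7 genes with no tested probe set: Aars2, Ears2, Eef1g, Eif2s3y, Eif4e1b, Eif4h and Eif5a. With 1 probe set per gene, 55 of 81 genes were above 0, the median was 0.13, and 4 were called.

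**Figure D5:**
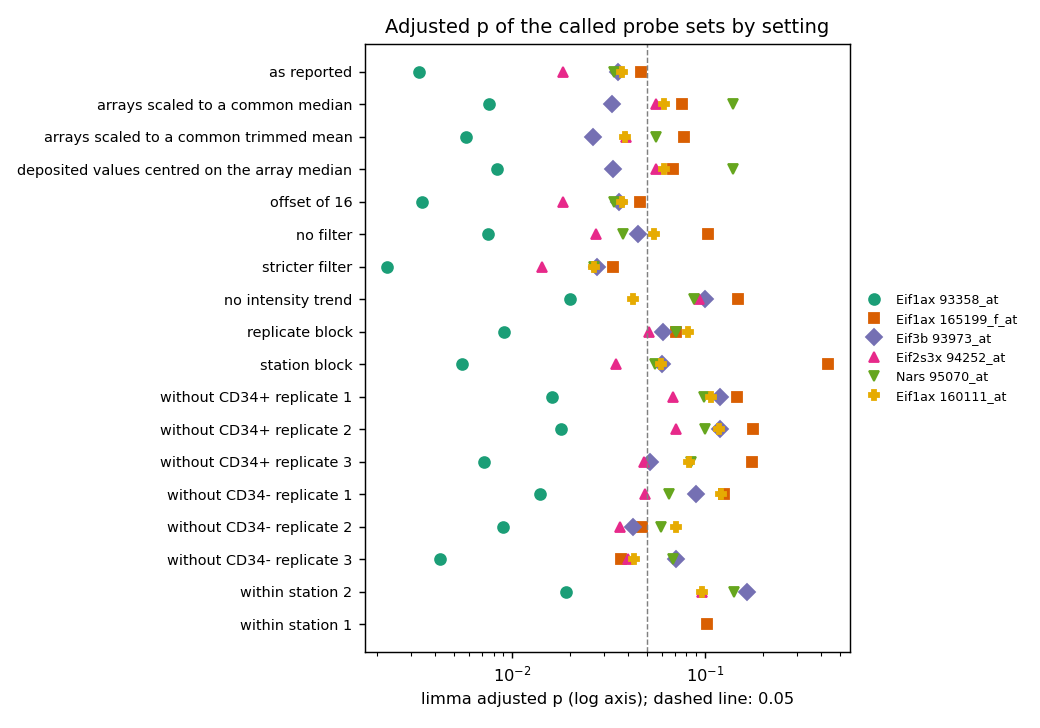
Adjusted p of limma (x axis, log scale; dashed line at 0.05) for the 6 called probe sets (symbols) as reported and under each alternative setting (rows), without the unscaled values. Probe set 93358_at of Eif1ax lies left of the line throughout, while each of the other 5 lies right of it in at least 7 settings.

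Other parts of the translation pathway, which the symbol rule does not take, were read from lists of genes. Release and ribosome recycling had 25 tested probe sets, of which 3 were called higher and 0 lower. The 3 were among the 10 tested on MG_U74Av2, where 8.21% of all tested probe sets were called higher. The median of the list was 0.20 there, -0.28 on MG_U74Bv2, where 6 of 7 differences were negative, and 0.04 on MG_U74Cv2. Etf1, the factor that recognises stop codons, read 4378, 5053 and 4366 in the CD34+ RNAs against 2866, 2866 and 3183 in the CD34- RNAs with 160451_at, a difference of 0.62 ± 0.10 (SE, n = 3 each; limma adjusted p = 0.00362). Its second called probe set differed by 0.35 (limma adjusted p = 0.0465), a call that held in 5 of 16 alternatives and in 0 of 6 leave-outs (limma adjusted p 0.058 to 0.162). Hbs1l, which rescues stalled ribosomes, read 2027, 2378 and 2099 in the CD34+ RNAs against 1286, 1157 and 1262 in the CD34- RNAs, a difference of 0.78 ± 0.11 (SE, n = 3 each; limma adjusted p = 0.00208). No CD34- RNA reached a CD34+ RNA in any of these 3 probe sets. Other probe sets of both genes were not called and did not all follow. For Hbs1l, the probe set on MG_U74Bv2 lay the opposite way, with 1803, 1831 and 1256 in the CD34+ RNAs against 2158, 2035 and 2297 in the CD34- RNAs and a difference of -0.40 without overlap (limma adjusted p = 0.279). The tested Hbs1l probe set on MG_U74Cv2 differed by 0.09. The uncalled Etf1 probe sets differed by 0.18 and 0.21 on MG_U74Av2, -0.14 on MG_U74Bv2, and -0.81 and 0.41 on MG_U74Cv2.

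Mitochondrial elongation and initiation factors had 8 tested probe sets, of which 2 were called higher and 0 lower, both among the 5 on MG_U74Av2, where 8.21% of all were called higher. Gfm1, the mitochondrial translocase, read 845, 941 and 921 in the CD34+ RNAs against 415, 493 and 576 in the CD34- RNAs, a difference of 0.82 ± 0.15 (SE, n = 3 each; limma adjusted p = 0.00652). Its other tested probe set, on MG_U74Cv2, read 852, 791 and 584 in the CD34+ RNAs against 894, 762 and 698 in the CD34- RNAs, with overlap and a difference of -0.08. Tsfm, the exchange factor of mitochondrial elongation, differed by 0.43 (limma adjusted p = 0.0238), called in 9 of 16 alternatives and in 1 of 6 leave-outs (limma adjusted p 0.0271 to 0.0906). In the synthetase genes and partners outside the rule 0 of 11 probe sets were called, in poly(A) binding, eIF4F and mTOR control 0 of 28, and in hypusine synthesis, GCN partners and eIF2 phosphatase 0 of 15. Of these, 6, 17 and 5 were on MG_U74Av2, where 14.9% of all tested probe sets were called, against 1.09% on MG_U74Bv2 and 0.0936% on MG_U74Cv2.

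The amino acid response list, ATF4 targets known from mouse cells, had 30 tested probe sets, of which 4 were called lower and 0 higher. The 4 were among the 14 on MG_U74Av2, where 6.69% of all tested probe sets were called lower. The median of the list was -0.16 on MG_U74Av2, 0.04 on MG_U74Bv2 and 0.22 on MG_U74Cv2, and -0.11 over all 30. Slc7a5 and Slc3a2, the chains of a transporter for large neutral amino acids, differed by -0.63 and -0.52 (limma adjusted p = 0.0044 and 0.0139). A second Slc3a2 probe set, on MG_U74Cv2, differed by 0.63 with overlap (limma adjusted p = 0.789). Trib3, a pseudokinase, read 685, 661 and 706 in the CD34+ RNAs against 1636, 1116 and 1072 in the CD34- RNAs, a difference of -0.83 ± 0.17 (SE, n = 3 each; limma adjusted p = 0.0107). Ddit3 (CHOP), a stress transcription factor, differed by -0.58 (limma adjusted p = 0.021). Of these calls, that of Ddit3 held in 12 of 16 alternatives (limma adjusted p 0.0143 to 0.113) and that of Slc3a2 in 13 of 16 (0.00396 to 0.0578), and those of Slc7a5 and Trib3 in 16 of 16. The other tested probe sets of the list on MG_U74Av2 were not called. Atf4 itself, which the list includes, differed by -0.12, Asns by -0.11 and 0.09, Psat1 by 0.20 and Psph by 0.10. Atf5 differed by -0.34, Shmt2 by -0.18, Mthfd2 by -0.17, Aldh18a1 by -0.14 and Cebpb by -0.11. Chac1, on MG_U74Bv2, differed by 0.04 and was not called. The cytosolic synthetases with the motif shown above were not called.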

How the data were processed

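Intensities per probe set were deposited, made by the authors with MAS5 per the submitters' processing notes; version and settings were not given in the sources used here, and no detection calls were read. The members and gene lists were chosen with earlier results of these data known. Per chip type, 66 control probe sets were left out, the 6 arrays were quantile normalized (limma 3.58.1, R 4.3.3), and the 20th percentile (51.5, 106 and 97.9 on MG_U74Av2, MG_U74Bv2 and MG_U74Cv2) was added before log2. Probe sets above the 40th percentile of their array on at least 3 of 6 arrays were tested with lmFit and eBayes (intensity trend), group as the only term. Arrays have no read depth, so their number limits the precision. Labels' replicate numbers did not pair the RNAs. Symbols came from the platform annotation; all 176 members matched RefSeq by Entrez identifier. The fit was tested on simulated data. Named were the called members and the other probe sets of their genes, the brightest and the largest uncalled one of each role class, 11 regulators, and called genes of the lists. Others were named after their values were seen, as being nearest the threshold, without overlap, in a role described or with several probe sets. Alternatives changed scaling, offset, filter, trend, blocks and RNAs. One promoter window is not reported here.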

Additional observations from a re-analysis of the deposited data

How the results depend on the processing

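On MG_U74Av2 the count of members called higher was 3 and became 1 without the intensity trend and 1 with a replicate block; leaving out 1 RNA gave 1 to 5, with 1 without CD34+ RNA 1 or 2 and 5 without CD34- RNA 3. The count called lower was 2 and became 0 with arrays scaled to a common median, 1 with a trimmed mean, 0 with values centred on the median, 1 without the filter, 1 without the trend, 0 with a replicate block, 0 with the station as a block and 0 within station 2; leaving out 1 RNA gave 0 to 2, with 2 only without CD34- RNA 3. On MG_U74Bv2 the count called higher was 1; it became 2 under the stricter filter and 0 under the 3 other scalings, without the filter or trend, with either block and within station 1, and leaving out 1 RNA gave 0 to 2. On MG_U74Cv2 it stayed at 0 except with unscaled values. Correlations of same-numbered deviations were -0.05 to 0.05 on MG_U74Av2, against -0.15 to 0.15 for other pairs. They were 0.02, 0.07 and 0.07 on MG_U74Bv2, against -0.10 to 0.04, and -0.02 to 0.04 on MG_U74Cv2, against -0.05 to 0.04. All were near 0, though 2 on MG_U74Bv2 lay above every other pair, so the block only says how calls move.

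With the deposited values unscaled, all tested members were called higher (74, 33 and 21 on the 3 chip types; 0 lower), as were 7630 of 7634 probe sets on MG_U74Av2. The medians of all tested probe sets were then 4.01, 5.65 and 6.72, the gap between scaled and unscaled arrays, and negative differences turned positive by construction. They were 3.56 (160111_at), 5.26 (112968_at) and 6.43 (168528_f_at) for Eif1ax, 3.68 for Nars, 6.58 for Eif2s3x 137240_r_at, 6.13 for Eef1aknmt, 3.71 for Eif4ebp1, 3.96 for Eif3c, 3.56 for Eif3f, 3.69 for Eef1a1, 5.55 for Eif2ak1, 5.14 for Eif2ak2, 5.21 for Eif5b, 5.18, 5.45 and 6.65 for Eef2k, 3.40 for Ddit3, 3.36 for Slc7a5, 3.13 for Trib3 and 3.45 for Slc3a2. Under the other alternatives, over 46 named probe sets, 648 of 728 values kept their side of the threshold, those uncalled in both included. Of the rest, 77 lost a call and 3 gained one, and 0 calls turned direction. Only called probe sets could lose a call, so the 648 do not measure how well calls held. Among the 6 called members, a call held in between 3 (Nars) and 16 (93358_at of Eif1ax) of 16 alternatives. The other sign was taken by 28 of the uncalled differences, and the cause was not tested. Over all tested probe sets, leaving out 1 RNA called 639 to 1230 on MG_U74Av2, against 1138, and 2 to 98 on MG_U74Bv2, against 84, with 1 called there under the station block.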
